A study of Mus musculus with 6 samples.

Results

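The nuclear genes for the respiratory chain and for ATP synthase were compared between 2 kinds of mouse stem cell, the spermatogonial stem cells (SSC) from which sperm production is sustained, and embryonic stem cells (ESC), which are pluripotent. The genes were taken by symbol, from the families Ndufa, Ndufb, Ndufc, Ndufs and Ndufv (complex I), Sdha to Sdhd (complex II), Uqcr (complex III), Cox4 to Cox8 (complex IV) and Atp5 (complex V). This gave 78 genes with 118 probes, of 19057 genes with a probe and 45281 probes in all. Of these, 71 genes were measured, meaning that at least 1 of their probes was detected (detection p under 0.01) on 3 or more of the 6 arrays. The ESC group holds 3 samples given as R1/E, a line of mouse ESC, and the SSC group 3 samples given as strain C57BL/6. No treatment, allele, animal age, sort or culture condition is given in the sources used here, so strain, culture and cell type cannot be told apart. Each sample was hybridised to 1 single-colour Illumina bead array after biotin labelling of its RNA. Whether the numbered samples of a group came from separate cultures or animals is not stated, and the p-values are therefore about the spread among these 6 samples, part or all of which may be technical.

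The respiratory chain sits in the inner mitochondrial membrane. Complexes I and II pass electrons from NADH and from succinate to coenzyme Q, complex III passes them on to cytochrome c, and complex IV hands them to oxygen. Complexes I, III and IV pump protons as they do so, and ATP synthase (complex V) lets the protons back to make ATP. Mitochondrial DNA encodes core subunits of every complex except complex II, and the nucleus encodes the rest. Several complex IV subunits exist as tissue isoforms, among them forms known from testis and from muscle. Pluripotent cells are known to lean on glycolysis while keeping a working chain.

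Promoters of nuclear subunit genes are known for sites of NRF1, of the ETS factor GABP, of YY1 and of the receptor ERR alpha, so the RefSeq promoter table (GRCm38.p6, 250 bases before to 50 bases after the start of each gene) was searched on both strands. It holds 64 of the 78 genes. The NRF1 core letters GCATGCGC, used in place of a longer form first searched, were found in 10 of the 64 (15.6%), against 3.05% of 27025 genes. The ETS letters CCGGAAG were found in 16 (25.0%, against 9.93% of all genes), the YY1 letters ATGGCGGC in 6 (9.4%, against 2.60%) and the ERR alpha letters TCAAGGTCA in 2 (3.1%, against 0.47%). None of the 4 motifs contains another. The 27025 genes are all those of the promoter table, and were not matched to the subunit genes for detection or base content. Of the 10 genes with the NRF1 letters, 3 were called lower in SSC, 0 higher and 7 were not called. Among the 16 genes with the ETS letters, 4 were called lower in SSC, 1 higher, 10 were not called and 1 was not measured. Over the 71 measured subunit genes 35.2% were called lower and 11.3% higher, and over all measured genes 36.5% and 37.9%. Whether the calls go with a motif was not tested. A match is a description of the letters in this window and not evidence of a bound site. Shown next are the 250 bases before the start of 4 genes that differed between the groups, 5′ to 3′ on the gene's strand, with matches in capitals. Atp5g2 and Sdhd were lower in SSC and Uqcrh was higher, and Cox6b2, a testis isoform gene that was lower in SSC, holds none of the 4 motifs. The capitals mark the NRF1 letters, which overlap on both strands, in Atp5g2 (chr15:102671048-102671297 on the minus strand) and the ETS letters on the opposite strand in Sdhd (chr9:50603850-50604099 on the minus strand) and Uqcrh (chr4:116075071-116075320 on the minus strand). The Cox6b2 stretch is chr7:4753095-4753344 on the minus strand. Sdhd is also 1 of the 2 genes with the ERR alpha letters, which lie at least in part beyond the printed bases. All 4 stretches are credited to RefSeq, GRCm38.p6.
Atp5g2: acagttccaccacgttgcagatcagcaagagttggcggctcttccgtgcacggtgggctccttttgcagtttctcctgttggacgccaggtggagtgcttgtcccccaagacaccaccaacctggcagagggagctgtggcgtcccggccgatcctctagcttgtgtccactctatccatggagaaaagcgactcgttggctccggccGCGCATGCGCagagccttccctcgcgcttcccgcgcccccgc
Sdhd: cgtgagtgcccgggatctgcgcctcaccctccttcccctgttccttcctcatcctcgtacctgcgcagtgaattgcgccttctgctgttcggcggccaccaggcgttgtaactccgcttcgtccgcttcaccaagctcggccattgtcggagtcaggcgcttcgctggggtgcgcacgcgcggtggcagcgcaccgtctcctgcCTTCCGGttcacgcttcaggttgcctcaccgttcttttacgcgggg
Uqcrh: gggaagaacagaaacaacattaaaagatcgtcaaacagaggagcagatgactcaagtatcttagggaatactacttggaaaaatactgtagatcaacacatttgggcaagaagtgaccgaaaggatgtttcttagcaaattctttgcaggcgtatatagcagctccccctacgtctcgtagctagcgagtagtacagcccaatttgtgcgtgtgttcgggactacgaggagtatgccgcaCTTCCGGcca
Cox6b2: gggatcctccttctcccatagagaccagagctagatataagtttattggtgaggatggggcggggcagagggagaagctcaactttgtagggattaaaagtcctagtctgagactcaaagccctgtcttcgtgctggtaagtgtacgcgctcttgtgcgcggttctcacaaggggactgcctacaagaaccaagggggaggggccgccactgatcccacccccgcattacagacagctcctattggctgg

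The arrays detected between 15242 and 15613 probes in ESC and between 16505 and 17211 in SSC. Over the kept probes, arrays correlated at 0.989 to 0.993 within a group and at 0.784 to 0.795 between groups. The labels were checked against marker genes. All 10 measured embryonic stem cell markers were lower in SSC, 10 of 12 markers of undifferentiated spermatogonia were higher and 2 were not called, and all 5 measured germ cell markers were higher. Over all measured genes 37.9% were called higher and 36.5% lower. The germ cell marker Mael was not measured. Markers of other testis cells moved with the SSC samples as well. Of their lists, Wt1 and Clu (Sertoli), Lhcgr (Leydig), Cd68 (macrophage) and Prm2 (spermatid) had no named probe. Thy1 is counted both as a marker of undifferentiated spermatogonia and as a fibroblast marker. Of 8 measured Sertoli cell markers 6 were higher and 2 lower, with a summed unnormalized intensity of 2057 to 2410 in ESC and 3860 to 4398 in SSC, and Kitl was not measured. Of 10 fibroblast and peritubular myoid markers 8 were higher, 1 lower and 1 not called, at 4123 to 4527 in ESC and 7498 to 8613 in SSC, and Pdgfrb was not measured. Of 4 measured Leydig cell markers 3 were higher and 1 lower, at 566 to 588 and 937 to 1103, while Star, Hsd3b1, Hsd3b6 and Nr5a1 were not measured. Of 4 macrophage and leukocyte markers 3 were higher and 1 not called, at 418 to 431 and 500 to 514, while Ptprc, Adgre1, C1qa, C1qb and Tyrobp were not measured. Both measured spermatocyte and spermatid markers were higher, at 310 to 333 and 494 to 929, while Sycp3, Dmc1, Acrv1, Prm1, Tnp1, Tnp2 and Odf1 were not measured. The part of these cells in the results that follow was not tested. In such bulk samples, fewer cells of a type and less RNA per cell cannot be told apart.

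Subunit genes differed by small amounts for the most part, and more of those called were lower in SSC than higher. Of the 71 measured genes, 25 were lower in SSC, 8 were higher and 38 were not called at an adjusted p under 0.05 in limma. That is 46.5% called, where 74.4% of all 10024 measured genes were called. Lower calls made up 35.2% of the subunit genes, near the 36.5% of all genes, while higher calls made up 11.3%, against 37.9% of all genes. These shares depend on the setting. Under scaling on array medians 67.6% of the subunit genes were called, against 75.1% of all genes. There 39 were lower and 9 higher, while 30.2% of all genes were lower and 44.9% higher. With a trended and robust prior 59.2% were called, against 75.6% of all genes. The median difference, SSC minus ESC on the log2 scale of normalized intensity, was −0.21 over the 71 genes and 0.00 over all measured genes. The median size of the difference regardless of sign was 0.30, against 0.68 over all genes. Differences within 0.5 of 0 made up 63.4% of the subunit genes and 39.3% of all genes. Only Cox8c was called higher by at least 2-fold, where 17.5% of all genes were. The 6 genes called lower by at least 2-fold were Ndufv3, Ndufb2, Cox6b2, Cox7a1, Atp5a1 and Atp5g2, where 15.8% of all genes were. For 38 of the 71 genes (53.5%) the range of the SSC samples lay clear of that of the ESC samples, against 76.9% of all genes.

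**Figure D1:**
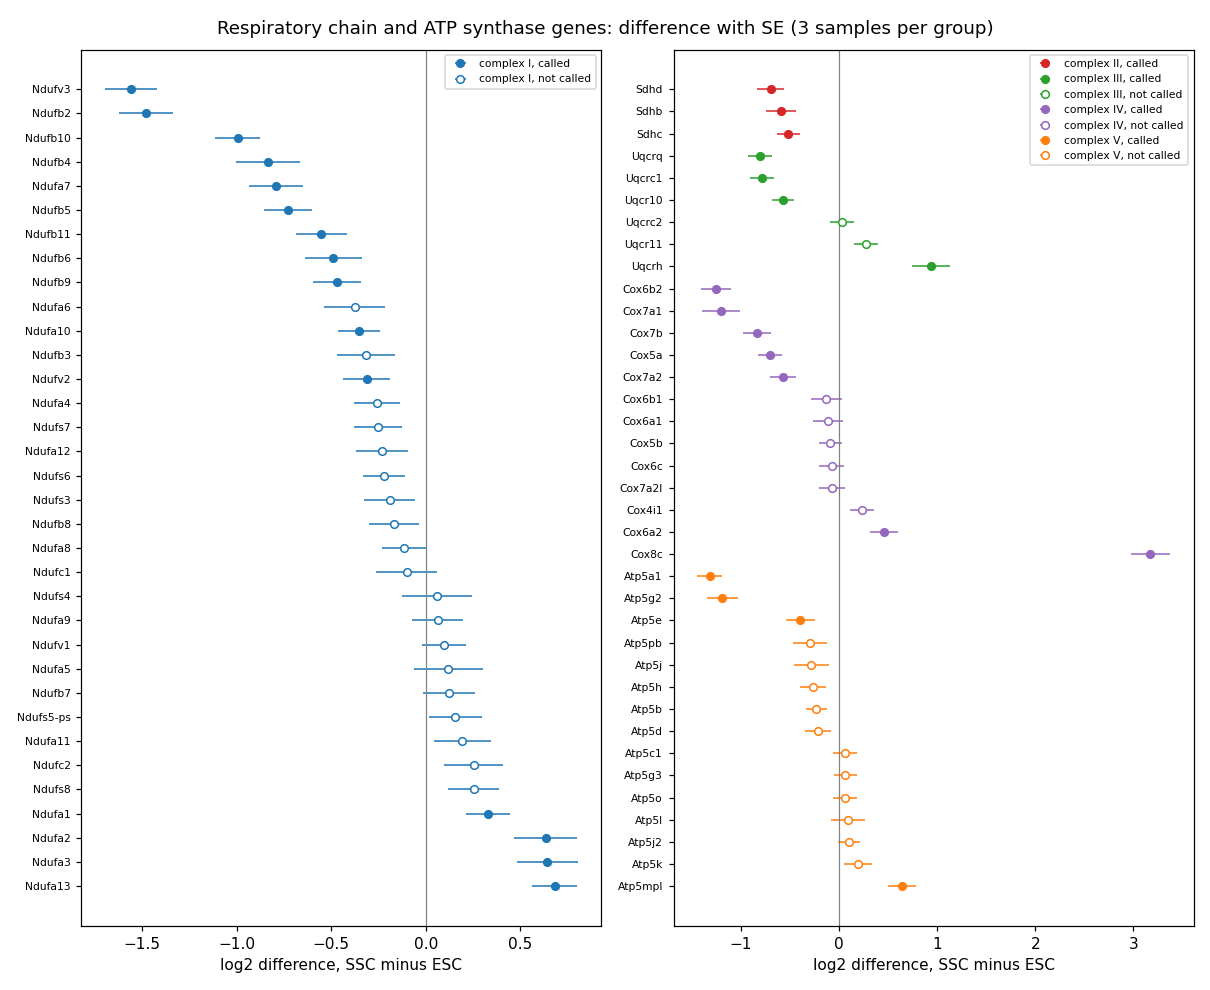
Log2 difference, SSC minus ESC, of the 71 measured genes, with the standard error of the fit and 3 samples per group, complex I on the left and complexes II to V on the right. Filled points passed an adjusted p under 0.05 in limma; Cox8c stands alone at 3.17, and the lowest value is that of Ndufv3 at −1.56.

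Genes were called in both directions in every complex except complex II. Beside the counts by complex, 36.5% of all measured genes were called lower and 37.9% higher. In complex I, 11 of 34 genes were lower (32.4%), 4 higher and 19 not called. All 3 measured genes of complex II were lower. In complex III, 3 of 6 were lower, 1 was higher and 2 were not called, in complex IV 5 of 13 were lower, 2 higher and 6 not called, and in complex V 3 of 15 were lower, 1 higher and 11 not called. The median difference was −0.21 in complex I, −0.59 in complex II, −0.27 in complex III, −0.11 in complex IV and −0.21 in complex V. These medians stayed below 0 under each of the scalings tried, but that of complex V came to −0.01 under cyclic loess, and that of complex III came to 0.03 with no detection filter. Scaling on array medians moved the median of all genes to 0.19. Lower calls then rose to 16 in complex I, 8 in complex IV and 9 in complex V. In that setting 30.2% of all genes were called lower and 44.9% higher, and the medians of complexes IV and V were −0.43 and −0.34. Single samples moved some medians by over 1.5 times. That of complex I was −0.11 without SSC replicate 2, and that of complex V was −0.13 without ESC replicate 3. That of complex IV was −0.05 without SSC replicate 2, −0.06 without ESC replicate 2, −0.18 without SSC replicate 1 and −0.23 without ESC replicate 1. Without background correction the median of complex V was −0.13, and with the mean of kept probes those of complexes IV and V were −0.27 and −0.13.

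Complex I takes electrons from NADH through flavoprotein and iron-sulfur subunits in its matrix arm and pumps protons in its membrane arm. Ndufv3 is an accessory subunit of the NADH-binding part. Its normalized log2 intensities were 11.61, 11.68 and 11.54 in ESC and 10.13, 9.77 and 10.25 in SSC. The groups were well apart, at 11.61 ± 0.07 (SD, n = 3) and 10.05 ± 0.25 (SD, n = 3), and the difference of −1.56 ± 0.14 SE, 2.95-fold lower in SSC, had an adjusted p of 3.78e-07 in limma. Its other kept probe gave −1.63. Ndufb2, an accessory subunit of the membrane arm, read 7.51, 7.47 and 7.10 in ESC and 6.02, 5.69 and 5.93 in SSC. Every SSC value lay more than 1 log2 unit under every ESC value (−1.48 ± 0.14 SE, limma adjusted p = 8.89e-07). Ndufb10, also of the membrane arm, read 8.40, 8.30 and 8.31 in ESC and 7.47, 7.27 and 7.28 in SSC, again without overlap (−0.996 ± 0.12 SE). Its second kept probe, detected on 1 ESC array and 3 SSC arrays, went the other way at 0.54, and the mean of both was −0.23 and no longer called. Without background correction the difference of Ndufb2 was −0.79, and it was still called.

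Ndufb4, another membrane arm subunit, was faint. Its values were 5.51, 5.88 and 5.15 in ESC and 4.82, 4.55 and 4.67 in SSC, and the probe was detected on 3 ESC arrays and 1 SSC array (−0.83 ± 0.17 SE, limma adjusted p = 5.82e-04, and −0.25 without background correction). Ndufa7, an accessory subunit of the matrix arm, was bright, at 11.22, 11.65 and 11.60 in ESC and 10.87, 10.61 and 10.60 in SSC. The groups did not overlap and differed by −0.79 ± 0.14 SE, or 1.73-fold (limma adjusted p = 2.32e-04). The other 6 lower genes were Ndufb5, Ndufb11, Ndufb6, Ndufb9, Ndufa10 and Ndufv2, with differences from −0.73 to −0.31. Ndufb11 was detected on 2 ESC arrays and 1 SSC array, and came to −0.15 without background correction and −0.36 under scaling on array medians. Ndufb9 came to −0.25 without background correction. Ndufb5 was smaller when arrays were scaled on their medians (−0.44), and Ndufa10 (−0.58) and Ndufv2 (−0.61) were larger in size. At each of these values the gene was still called. The call of Ndufv2 was lost without ESC replicate 1, ESC replicate 2, SSC replicate 2 or SSC replicate 3, that of Ndufb6 without SSC replicate 2, and that of Ndufb9 under scaling on array medians (−0.13). Read by family, the Ndufb genes of the membrane arm held 7 of the 11 lower calls, with 7 of 10 lower and 0 higher. Over all measured genes 36.5% were lower and 37.9% higher. With detection on all 6 arrays, which leaves out the faint Ndufb4 and Ndufb11, 5 of 8 Ndufb genes were lower, against 38.6% of all genes. Under scaling on array medians 7 were lower and 1 was called higher, against 30.2% and 44.9% of all genes. The Ndufb median was −0.52 and stayed between −0.59 and −0.26 under the alternatives. The Ndufa genes had 4 of 13 higher and 2 lower with a median of 0.06, which fell below 0 in 3 alternatives (−0.06 on scaling by array medians, −0.13 from the mean of kept probes and −0.10 without ESC replicate 1) and lay between 0.01 and 0.15 in the others, and the Ndufs and Ndufv genes, which include the core electron-carrying subunits, had 2 of 9 lower and 0 higher. This grouping was chosen after the values were seen.

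The 4 higher genes of complex I were all accessory Ndufa subunits. Ndufa13, also known as Grim19, read 12.03, 11.84 and 11.83 in ESC and 12.69, 12.48 and 12.57 in SSC. All SSC values were above all ESC values (0.68 ± 0.12 SE, 1.60-fold, limma adjusted p = 2.04e-04), but under scaling on array medians the difference shrank to 0.19 and was not called. Ndufa3, a small membrane subunit, read 9.75, 10.06 and 10.21 in ESC and 10.97, 10.49 and 10.49 in SSC, with a difference of 0.64 ± 0.16 SE and one of 0.69 at its other kept probe. Ndufa2, of the matrix arm, read 9.78, 10.34 and 10.36 in ESC and 10.91, 10.55 and 10.91 in SSC. Its lowest SSC value exceeded its highest ESC value (0.63 ± 0.17 SE, limma adjusted p = 0.00401). Ndufa1, a small subunit encoded on the X chromosome, differed by 0.33, and its call was lost without ESC replicate 1, ESC replicate 2 or SSC replicate 1.

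The 19 genes of complex I that were not called differed by −0.37 (Ndufa6) to 0.25 (Ndufc2 and Ndufs8). They include the core subunits Ndufv1 (0.10), which binds NADH, Ndufs3 (−0.19), Ndufs7 (−0.25) and Ndufs8 (0.25), the last 2 carriers of iron-sulfur clusters. The rest are Ndufa4, Ndufa5, Ndufa6, Ndufa8, Ndufa9, Ndufa11, Ndufa12, Ndufb3, Ndufb7, Ndufb8, Ndufc1, Ndufc2, Ndufs4, Ndufs6 and Ndufs5-ps. Ndufa4 is counted here by its symbol, although its protein is known to sit in complex IV. Ndufs5-ps is annotated as a pseudogene, and whether its probe reads transcripts of the parent gene was not tested. Ndufs1, a core iron-sulfur subunit, had 1 probe that was detected on 0 of 6 arrays, so it has no value here.

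**Figure D2:**
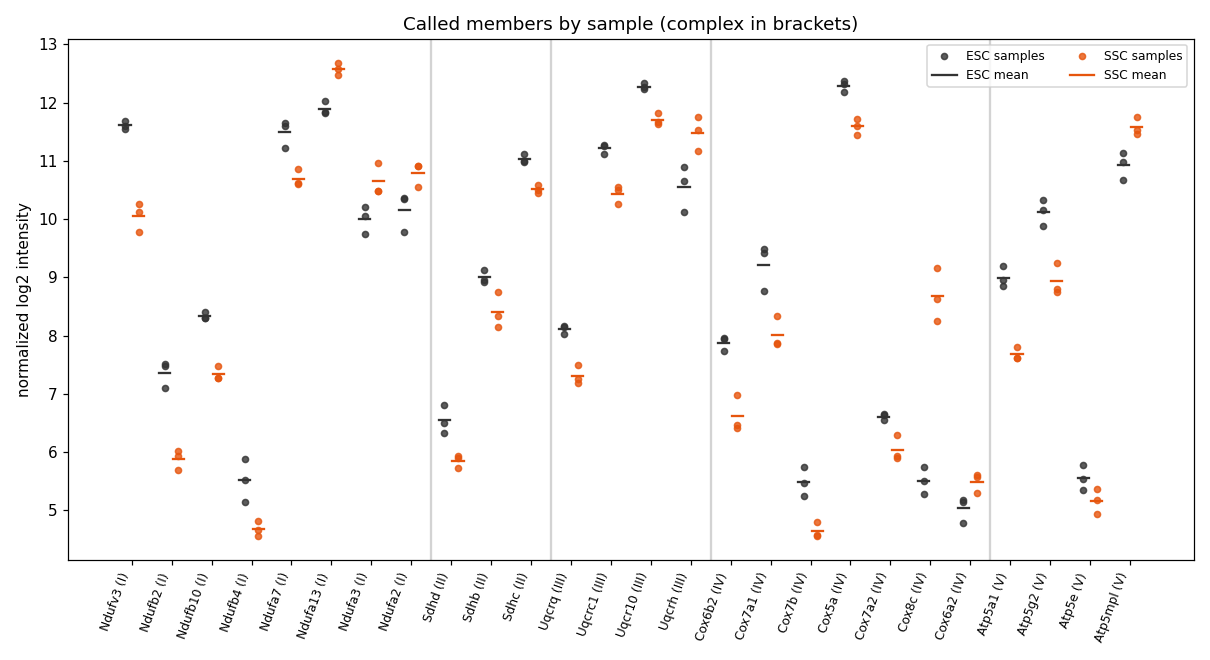
Normalized log2 intensity of the called genes chosen for description, with 3 ESC samples (dark points), 3 SSC samples (orange points) and the mean of each group as a bar, ordered by complex. In all but Atp5e the 3 SSC points lie wholly above or wholly below the 3 ESC points.

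Complex II, or succinate dehydrogenase, links the chain to the tricarboxylic acid cycle and is the 1 complex encoded wholly in the nucleus. Sdhd, a membrane anchor, read 6.80, 6.33 and 6.499 in ESC and 5.72, 5.93 and 5.89 in SSC. The 3 SSC values lay below the 3 ESC values (−0.70 ± 0.14 SE, limma adjusted p = 5.63e-04). Sdhb, the iron-sulfur subunit, read 8.95, 8.93 and 9.13 in ESC and 8.75, 8.33 and 8.14 in SSC, lower in SSC by a difference of −0.59 ± 0.15 SE (1.51-fold, limma adjusted p = 0.00364). Its other 2 kept probes were lower as well, at −0.36 and −0.66. Sdhc, the second anchor, read 11.003, 10.97 and 11.11 in ESC and 10.496, 10.59 and 10.46 in SSC with little spread in either group (−0.52 ± 0.11 SE, limma adjusted p = 0.00123). All 3 genes were called lower under each of the 16 alternatives, though the difference of Sdhd was −0.32 without background correction and −0.36 under scaling on array medians. Sdha, the flavoprotein subunit that oxidises succinate, had 1 probe, detected on 0 arrays, and has no value here.

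In complex III, 3 genes were lower and 1 was higher by about as much. Uqcrc1, a core protein of the complex, read 11.12, 11.28 and 11.25 in ESC and 10.49, 10.26 and 10.55 in SSC. No SSC value reached the ESC range (−0.78 ± 0.12 SE, 1.72-fold, limma adjusted p = 7.66e-05). The small subunit Uqcrq read 8.03, 8.15 and 8.17 in ESC and 7.502, 7.18 and 7.25 in SSC (−0.80 ± 0.13 SE), and the small subunit Uqcr10 read 12.24, 12.33 and 12.26 in ESC and 11.82, 11.67 and 11.63 in SSC (−0.57 ± 0.12 SE). The other kept probe of Uqcr10 was at −0.60, and under scaling on array medians its difference grew to −1.01. Uqcrh, the hinge protein next to cytochrome c1, went the other way. It read 10.12, 10.65 and 10.89 in ESC and 11.75, 11.17 and 11.53 in SSC, so that its lowest SSC sample stood above its highest ESC sample (0.93 ± 0.19 SE, 1.91-fold higher, limma adjusted p = 7.46e-04). The second core protein gene, Uqcrc2 (0.03), and Uqcr11 (0.28) were not called. Both probes of Uqcrfs1, the Rieske iron-sulfur protein, were detected on 0 arrays.

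Complex IV, cytochrome c oxidase, held the largest difference of all 71 genes, and its tissue isoforms moved in both directions. Cox8c encodes a form of subunit 8 described from testis. Its normalized values were 5.74, 5.500 and 5.28 in ESC and 8.63, 8.24 and 9.16 in SSC, and its unnormalized intensities were 134, 128 and 120 in ESC against 493, 438 and 659 in SSC. Every SSC sample was above every ESC sample by more than 2 log2 units, at 8.68 ± 0.46 (SD, n = 3) against 5.505 ± 0.23 (SD, n = 3), a difference of 3.17 ± 0.20 SE or 9.01-fold (limma adjusted p = 1.39e-08). It was called under each of the 16 alternatives, at 1.91 to 3.4. The lowest value came without background correction and from the authors' deposited processed table, and the probe was detected on all 6 arrays. The common form Cox8a was not analysed here.

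Cox6b2, also known as a testis form, of subunit 6b, was higher in ESC instead. It read 7.73, 7.95 and 7.95 in ESC and 6.47, 6.42 and 6.98 in SSC, and the lowest ESC value exceeded the highest SSC value (−1.25 ± 0.15 SE, 2.39-fold lower in SSC, limma adjusted p = 8.73e-06). Its common counterpart Cox6b1 read 11.13, 11.54 and 11.68 in ESC and 11.55, 11.15 and 11.25 in SSC, with overlapping groups and no call (−0.13 ± 0.16 SE), although its second kept probe was called lower at −0.47. Cox7a1, the heart and muscle form of subunit 7a, read 8.76, 9.48 and 9.41 in ESC and 8.33, 7.87 and 7.85 in SSC and was lower in SSC by a difference of −1.20 ± 0.19 SE (limma adjusted p = 8.12e-05). Without background correction the difference of Cox6b2 was −0.79, and it was still called. The widely expressed counterpart of Cox7a1, Cox7a2, was lower too, by a smaller difference, at 6.65, 6.55 and 6.63 in ESC and 6.30, 5.89 and 5.93 in SSC (−0.57 ± 0.13 SE). That difference was −0.27 without background correction and −0.22, no longer called, under scaling on array medians. Cox6a2, the heart and muscle form of subunit 6a, was close to background, at 4.77, 5.14 and 5.18 in ESC and 5.57, 5.29 and 5.60 in SSC, and was detected on 2 ESC arrays and 3 SSC arrays. It was higher in SSC by 0.46 ± 0.14 SE (limma adjusted p = 0.0113), a call lost without background correction (0.14), from the authors' deposited processed table (0.14), without ESC replicate 1 (0.33) and at an adjusted p under 0.01. Its common counterpart Cox6a1 read 11.68, 12.01 and 12.08 in ESC and 11.96, 11.54 and 11.94 in SSC and was not called (−0.11 ± 0.15 SE). Under scaling on array medians both counterparts were called lower, Cox6b1 at −0.43 and Cox6a1 at −0.49. The isoform genes Cox4i2, Cox7b2 and Cox8b were not measured. Cox4i2 was detected on 2 ESC arrays and 0 SSC arrays, and the other 2 on 0 arrays.

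Of the other nuclear subunits of complex IV, Cox5a, which lies on the matrix side, was bright and lower in SSC. Its values were 12.32, 12.38 and 12.18 in ESC and 11.61, 11.45 and 11.72 in SSC, without overlap (−0.70 ± 0.12 SE, limma adjusted p = 1.85e-04, and −1.11 under scaling on array medians). Cox7b, a small membrane subunit encoded on the X chromosome, read 5.47, 5.74 and 5.24 in ESC and 4.81, 4.58 and 4.56 in SSC and was detected on 3 ESC arrays and 1 SSC array (−0.83 ± 0.14 SE, and −0.24 without background correction). Cox4i1, the main form of the largest nuclear subunit, Cox5b, Cox6c and Cox7a2l, a factor of supercomplexes, were not called, with differences of 0.23, −0.09, −0.07 and −0.07.

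ATP synthase consists of a catalytic head, a central and a peripheral stalk, and a membrane ring that turns as protons pass. Atp5a1, the alpha subunit of the head, read 9.19, 8.85 and 8.96 in ESC and 7.62, 7.80 and 7.62 in SSC, wholly apart (−1.32 ± 0.13 SE, 2.49-fold lower in SSC, limma adjusted p = 9.21e-07). Its second kept probe gave −0.21 and was not called, and the mean of both was −0.77. Atp5b, the beta subunit that makes up the head with alpha, was not called. Its values of 14.04, 14.04 and 14.09 in ESC and 13.82, 13.80 and 13.85 in SSC did not overlap, and the difference was −0.23 ± 0.11 SE (limma adjusted p = 0.0749). Atp5g2 is 1 of the genes for the identical c subunits of the ring. It read 9.89, 10.32 and 10.16 in ESC and 9.25, 8.80 and 8.76 in SSC and was lower by a difference of −1.19 ± 0.16 SE (2.28-fold, limma adjusted p = 1.79e-05). Atp5g3, another gene for the same protein, read 13.07, 12.94 and 12.96 in ESC and 13.003, 13.03 and 13.13 in SSC, with overlapping groups (0.06 ± 0.11 SE, not called). The third such gene, Atp5g1, was not analysed here.

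Atp5e, the epsilon subunit of the central stalk, was faint, and its values of 5.54, 5.77 and 5.34 in ESC and 5.17, 4.94 and 5.37 in SSC overlapped between the groups (−0.39 ± 0.15 SE, limma adjusted p = 0.0283). That call did not hold without background correction (−0.13), from the processed table (−0.13), under scaling on array medians (−0.11), with no detection filter, at an adjusted p under 0.01, and without ESC replicate 2, SSC replicate 1 or SSC replicate 2. Atp5mpl, a small membrane subunit, was the 1 gene of complex V called higher, at 10.67, 10.99 and 11.13 in ESC and 11.75, 11.52 and 11.46 in SSC (0.65 ± 0.14 SE, limma adjusted p = 0.0012, and 0.37 under scaling on array medians). Atp5k, subunit e, was detected on 0 ESC arrays and 3 SSC arrays at 4.90, 4.91 and 4.501 in ESC and 5.17, 4.86 and 4.86 in SSC, values so near background that no fold is given. It was called under scaling on array medians alone (0.37). Atp5pb, of the peripheral stalk, had 3 kept probes. The brightest read 9.71, 10.12 and 10.31 in ESC and 10.05, 9.57 and 9.64 in SSC and was not called (−0.30 ± 0.17 SE), a second was called lower at −0.42, and the third, detected on the SSC arrays alone, was called higher, by at least 1.81-fold against the lowest level detectable in ESC. The brightest probe was called lower without ESC replicate 1 (−0.46) or SSC replicate 1 (−0.45). The mean of the 3 was 0.20. Atp5c1, Atp5d, Atp5h, Atp5j, Atp5j2, Atp5l and Atp5o were not called by their brightest probe, with differences from −0.28 to 0.10. The second kept probe of Atp5j was called higher at 1.31. Both probes of Atp5md failed the detection filter.

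**Figure D3:**
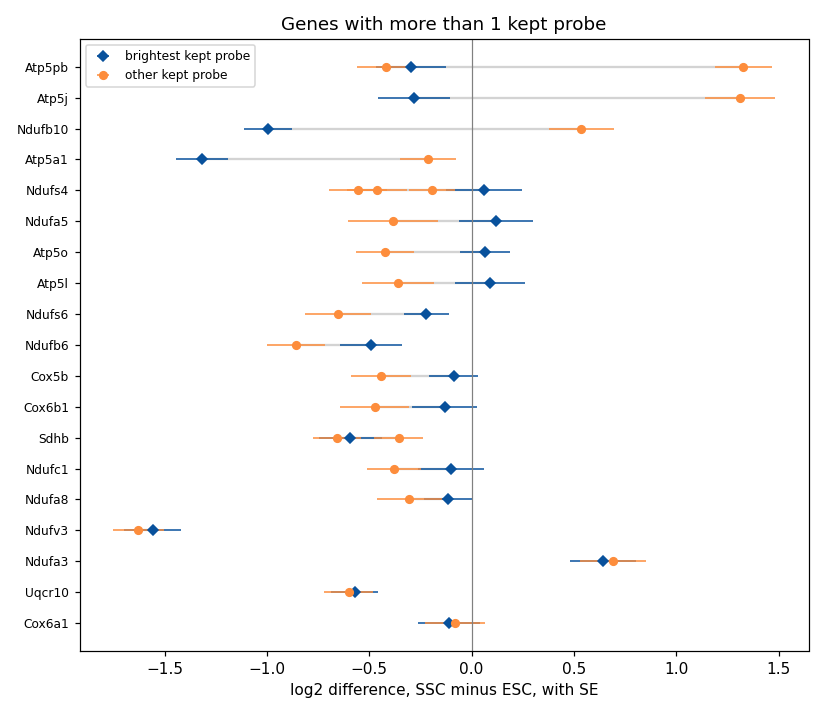
Log2 difference, SSC minus ESC, with SE for each kept probe of the 19 genes with more than 1, ordered by the distance between a gene's probes. Diamonds are the brightest probes, which stand for the gene in the counts; Atp5pb, Atp5j and Ndufb10 have probes far apart, and Ndufv3, Ndufa3, Uqcr10 and Cox6a1 have probes close together.

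The plot by probe shows how far these values depend on the probe. Of 23 further kept probes in the 19 genes, 16 had a more negative difference than the brightest probe of the same gene. In 7 genes the brightest probe was not called while another was called lower, namely Ndufs4, Ndufs6, Ndufc1, Cox5b, Cox6b1, Atp5o and Atp5pb. Counted by probe, 38 of 94 kept probes were lower, 12 higher and 44 not called. The shares over all kept probes were not taken, and over all measured genes 36.5% were lower and 37.9% higher. Only Ndufb10 and Atp5pb had probes called in opposite directions.

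Subunits encoded in mitochondrial DNA were set beside the nuclear ones. The annotation names 8 of 13 such genes, each with 1 probe, and 7 were measured. These transcripts were matched under their unprefixed names after the annotation was seen. ND4, a proton-pumping subunit of complex I, read 12.68, 12.54 and 12.80 in ESC and 13.500, 13.56 and 13.67 in SSC and was higher in SSC in 3 of 3 samples (0.91 ± 0.12 SE, limma adjusted p = 1.75e-05). COX2, a core subunit of complex IV, read 9.64, 9.83 and 10.05 in ESC and 10.53, 10.41 and 10.10 in SSC (0.51 ± 0.15 SE), and ATP6, of the ATP synthase membrane part, read 11.02, 10.95 and 10.85 in ESC and 11.26, 11.31 and 11.61 in SSC (0.45 ± 0.13 SE). Both were higher without overlap, but the call of ATP6 was lost under scaling on array medians. Over all measured genes 76.9% did not overlap, 37.9% were called higher and 36.5% lower. ND5 was lower, at 8.05, 8.27 and 8.03 in ESC and 7.40, 6.75 and 7.45 in SSC (−0.91 ± 0.17 SE). CYTB (0.27), ND1 (0.33) and ND4L (0.17) were not called. Under scaling on array medians CYTB and ND1 turned below 0, ND4 came to 0.36 and ND4L was called higher at 0.48, while CYTB was called higher under 8 alternatives, cyclic loess (0.54) among them. ND1 was called higher under 3 alternatives, with a trended and robust prior, without ESC replicate 1 (0.42) and without SSC replicate 1 (0.50), and was 0.17 without SSC replicate 3. The median over the 7 was 0.33, and 0.20 under that scaling, while that of the 71 nuclear genes was −0.21 and −0.34. The difference between the 2 sets was not tested.

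**Figure D4:**
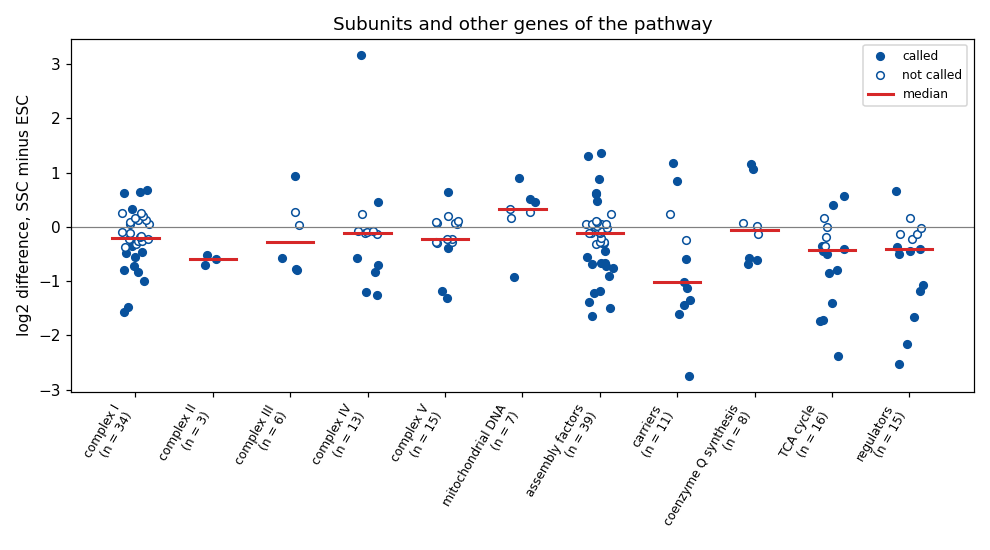
Log2 difference, SSC minus ESC, of each measured gene in complexes I to V, in mitochondrial DNA and in 5 lists of related genes, with the median of each set as a red bar; filled points passed an adjusted p under 0.05. The list of carriers has the lowest median among the measured genes, −1.02 (−0.42 with no detection filter), and the 7 genes of mitochondrial DNA have a median of 0.33.

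Genes that work around the chain were described from 5 lists. The difference between any of these lists and the subunits, or all genes, was not tested. Over all 10024 measured genes, 36.5% were called lower, 37.9% higher and 74.4% in either direction. Of 11 measured electron and nucleotide carriers and pores, 7 were lower, 2 higher and 2 not called, with a median of −1.02, against 0.00 over all genes. With no detection filter the list had 14 genes and a median of −0.42. The lowest were Gpd2, the mitochondrial glycerol-3-phosphate dehydrogenase that feeds electrons to coenzyme Q, at −2.74 ± 0.13 SE, the electron transfer flavoprotein subunit Etfb (−1.61 ± 0.14 SE) and Dhodh (−1.44 ± 0.12 SE), which feeds electrons to coenzyme Q during pyrimidine synthesis. Gpd2 read 9.66, 9.67 and 9.495 in ESC and 6.96, 6.998 and 6.64 in SSC, 6.68-fold lower in SSC. Cytochrome c itself was higher, with Cycs at 10.18, 10.01 and 9.98 in ESC and 10.96, 10.92 and 10.83 in SSC (0.85 ± 0.12 SE, limma adjusted p = 2.44e-05), as was the outer membrane pore Vdac3 (1.17 ± 0.13 SE). The testis forms Cyct and Slc25a31 and the carrier Slc25a4 were not measured.

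In the tricarboxylic acid cycle with pyruvate entry, 10 of 16 genes were lower, 2 higher and 4 not called, with a median of −0.43. Over all measured genes 36.5% were lower and 37.9% higher. Pdha1, the regulated subunit of pyruvate dehydrogenase, read 9.73, 9.68 and 9.92 in ESC and 7.31, 7.39 and 7.52 in SSC and was 5.18-fold lower in SSC (−2.37 ± 0.12 SE, limma adjusted p = 1.98e-09). The isocitrate dehydrogenases Idh3a (−1.74 ± 0.12 SE) and Idh2 (−1.71 ± 0.13 SE) followed. Pyruvate carboxylase, Pcx (0.57 ± 0.12 SE), detected on 1 ESC array and 3 SSC arrays, and Suclg1 (0.40 ± 0.14 SE) were higher, and the call of Suclg1 was lost without ESC replicate 2, ESC replicate 3, SSC replicate 1 or SSC replicate 3. Of 8 measured genes of coenzyme Q synthesis, 3 were lower (Coq6, Coq5 and Coq10a, −0.68 to −0.57), 2 higher (Coq10b, 1.16, and Coq4, 1.06, detected on 2 ESC arrays) and 3 were not called, with a median of −0.05, which ran from −0.13 (detection on all 6 arrays) to 0.10 (scaling on array medians). Leaving out 1 sample moved it by over 1.5 times in 3 cases, to −0.12 without ESC replicate 1, −0.08 without ESC replicate 3 and −0.09 without SSC replicate 1. The call of Coq10a was lost under scaling on array medians.

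Beside the counts that follow, 74.4% of all measured genes were called, 36.5% lower and 37.9% higher. Of 39 measured assembly factors, 13 were lower, 6 higher and 20 not called, with a median of −0.11. Under scaling on array medians that became 11 lower and 11 higher, against 30.2% and 44.9% of all genes, with a median of 0.02. With the mean of kept probes 18 were lower and 5 higher, with a median of −0.23, and the median was also −0.23 without ESC replicate 2 and −0.17 without SSC replicate 2. The lowest were Sco1, which delivers copper to complex IV, at −1.63 ± 0.14 SE, the complex I factor Timmdc1 (−1.502 ± 0.12 SE) and the complex IV factor Coa4 (−1.39 ± 0.13 SE). The highest were the complex IV factor Cox14 (1.37 ± 0.13 SE), Sdhaf1 of complex II at 1.31 ± 0.12 SE and the complex III factor Ttc19 (0.89 ± 0.12 SE). The mean of the kept probes of Sdhaf1 was 0.20 and not called. Among 15 regulators of mitochondrial gene expression, 9 were lower, 1 higher and 5 not called, with a median of −0.42, and under scaling on array medians 6 were lower, with a median of −0.14. The median was −0.27 without background correction. Ppargc1b, a coactivator of mitochondrial genes, was detected on 3 ESC arrays and 0 SSC arrays and was at least 5.05-fold lower in SSC, the bound being the mean of ESC over the lowest level detectable in SSC. Tfb1m, a methyltransferase of mitochondrial ribosomal RNA, was lower by a difference of −2.16 ± 0.21 SE, and the transcription termination factor Mterf1a by −1.67 ± 0.11 SE. Nrf1, whose letters were searched in the promoters, was the 1 regulator called higher (0.67 ± 0.12 SE, 8.25, 8.13 and 8.16 in ESC and 8.70, 8.85 and 9.0 in SSC), or 0.34 as a mean over its kept probes. Esrra, which encodes ERR alpha, read 8.32, 8.35 and 8.02 in ESC and 7.15, 7.001 and 7.01 in SSC and was lower (−1.18 ± 0.13 SE, limma adjusted p = 2.61e-06). It is named, outside the rule, because the letters of its factor were searched as well, and Yy1 was not measured. Without background correction Pcx came to 0.18, Coq4 to 0.40, Coq10a to −0.32, Timmdc1 to −0.92, Coa4 to −0.86, Tfb1m to −1.25 and Ppargc1b to −1.04, and all of these 7 genes were still called. The mean over the kept probes of Coq10b was 0.59, also called.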

How the data were processed

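RNA of 6 samples was measured on single-colour Illumina bead arrays. Per the labels' protocols Trizol extraction was followed by column clean-up, DNase and biotin labelling. The deposited intensity values are mean probe brightness on a linear scale, not normalized between arrays, with detection p-values deposited beside them. GenomeStudio is named per the submitters' processing notes. The authors also deposited processed intensity values with nearly the same quantiles in each column, made by steps not given in the sources used here. They gave nearly the same differences as quantile normalization without background correction.

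Background was corrected with normexp from the detection p-values (offset 16), and arrays were quantile normalized and log2 transformed (limma 3.58.1, R 4.3.3). Probes detected at p under 0.01 on at least 3 arrays were kept, 17435 of 45281. They were fitted with lmFit and eBayes, SSC minus ESC, with Benjamini-Hochberg adjustment across every kept probe. A gene is its kept probe of highest mean. The fit alone was tested on simulated data with independent noise, in which few probes were changed. Here 74.4% of genes were called, so that test does not bear on the scaling or on the calls. Probes were named from the platform's annotation, where 34885 had 1 symbol, 18 several and 10378 none. All 78 members matched RefSeq by gene identifier.

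The members, the lists of related genes and the rules were chosen with earlier results of these data known. Values by sample were given, per complex, for up to 5 called genes in the commoner direction and 3 in the other, for tissue isoforms with counterparts, for genes undetected in 1 group and for genes whose probes were called in opposite directions. Of other lists, up to 3 called genes per direction were named. Atp5b, Atp5g3 and the mitochondrial DNA genes were added after their values were seen. Alternatives were other background and scaling settings, the authors' processed table, other filters, the mean of kept probes, another prior, a stricter limit, a replicate block and each sample left out. The number of arrays limits the precision.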

Additional observations from a re-analysis of the deposited data

How the results depend on the processing

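The count of members called higher was 6 to 10 and the count called lower 21 to 32 under every alternative but 1, against 8 and 25. The exception was scaling on array medians, where 30.2% of all genes were called lower and 44.9% higher. It gave 39 lower calls and a median difference over the members of −0.342. The other medians ran from −0.247 to −0.138. Leaving out each sample in turn gave 6 to 10 higher calls, 22 to 29 lower calls and medians from −0.247 to −0.138. Over the same fits 30.4% to 39.2% of all genes were higher and 31.6% to 38.9% lower. Of the 26 called members described by sample, all kept their direction and 21 also kept their call under each of the alternatives that could be run for them. Their sizes were over 1.5 times smaller for 9 of the 26 without background correction and for 9 from the authors' processed table. Both settings gave 9 higher and 30 lower calls and a median of −0.164, so they do not count as separate checks. The 26 were mostly chosen as the largest called differences of each complex. Among the other called members, Ndufa1, Ndufa10, Ndufb6, Ndufb9 and Ndufv2 lost their call in at least 1 alternative. Ndufb5 and Ndufb11 did not. With 1 sample left out, Cox6a1 lay between −0.229 (without ESC replicate 1) and 0.0267 (without SSC replicate 2), and it was −0.495 and called lower under scaling on array medians, and Atp5pb, not called, turned to 0.204 with the mean of its kept probes. The replicate number as a block gave 8 higher and 24 lower calls, the call of Ndufv2 being lost. With that block 37.4% of all genes were higher and 35.9% lower. The labels give no batch, so the numbers were not taken as pairs. Same-numbered samples deviated from their group means with correlations of −0.14, −0.068 and 0.03, and differently numbered ones with −0.12 to 0.17. With 3 samples per group these values cannot decide whether the numbers are pairs. Among genes detected on all 6 arrays, 66 members remained, with 8 higher and 23 lower calls. With that filter 33.8% of all genes were higher and 38.6% lower. Probes near background limit the values of Ndufb4, Ndufb11, Cox7b, Cox6a2, Atp5e and Atp5k most.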

Other observations

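The share of subunit genes called was set beside their brightness, in 4 ranges, and was lower in both ranges from 9 upwards than in both ranges below 9. This split was chosen after the values were seen. Of 26 members with a mean normalized log2 intensity of 9 to 11, 8 were called, 5 lower and 3 higher, where 71% of all 1704 genes in that range were called. Of 25 members at 11 or above, 8 were called, again 5 lower and 3 higher, where 58.3% of 350 genes were. Of the 20 members below 9, 9 of 10 under 7 and 8 of 10 at 7 to 9 were called, and all but 1 of those called in each range were lower in SSC. Over these 2 ranges 75.7% and 76.1% of all genes were called. The share of all genes called lower was not taken by range, and was 36.5% over all ranges. Under 7, Ndufb4 and Cox7b were detected on 3 ESC arrays and 1 SSC array, and Ndufb11 on 2 and 1. They passed the filter mainly through ESC, where they were high. Cox6a2, called higher, was detected on 2 ESC arrays and 3 SSC arrays, and Atp5k, not called, on 0 and 3. The median size of the difference was 0.56, 0.90, 0.25 and 0.23 over the members from the dimmest to the brightest range, and 0.73, 0.70, 0.55 and 0.36 over all genes.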
